A study of Solanum lycopersicum with 12 samples.

Results

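Salt lowered 68 probe sets of the tomato leaf array in every within-occasion comparison, out of 7732 tested (0.879%) and 10209 on the array. A probe set is a group of short probes meant to read a transcript, though some can match several related transcripts. The 68 were chosen by their salt values: the salt array had to be below its water array in each of 6 pairs, the mean of the 6 differences had to be at most -0.5 on the log2 scale, and the mean log2 value had to exceed 3.2 in at least 1 group. Their salt changes are therefore a description and carry no test. The same rule turned upwards found 71 probe sets (0.918%). The 68 probe sets came from 63 transcript clusters, since XTH16 was read by 3 of them and 3 other transcripts were read by a pair each.

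The plants were 4-week-old tomato (cultivar Ailsa Craig), sprayed with water or with Alethea at 99 parts water to 1 part Alethea. Alethea is a plant activator made of potassium dihydrojasmonate, sodium benzoate and L-arginine. The formulation also held the nutrients zinc, iron, manganese, copper, magnesium oxide and boron, so the Alethea change covers all of these together. At 24 h after the spray the pots received water or 100 mM NaCl, and the third true leaf was frozen 24 h later, which was 48 h after the spray. The 4 groups were water then water (WW), water then salt (WS), Alethea then water (AW) and Alethea then salt (AS). Each group had 3 arrays, labelled replicates 1 to 3, and each array carried RNA pooled from 3 plants. The study ran the experiment on 3 separate occasions, and the replicate number was taken as the occasion, which the labels do not state. The 6 pairs were thus WS minus WW and AS minus AW on occasions 1, 2 and 3.

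Leaf cells grow when the wall around them yields. Xyloglucan endotransglucosylase/hydrolases (XTHs) cut and rejoin the xyloglucan chains that tie cellulose fibrils together, arabinogalactan proteins are heavily glycosylated proteins of the cell surface, and class III peroxidases are secreted enzymes that can cross-link wall phenolics. Proline, in turn, accumulates in many plants under osmotic stress, and proline dehydrogenase carries out the first step of its breakdown in mitochondria.

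The arrays had medians between 7.66 and 7.76. The leaf genes CAB4, CAB5, CAB6A and PSBO averaged 14.89 to 15.20 on the arrays, and the fruit genes E8, ACS2 and 2A11 stayed under the filter in every group. Psy1, also on the fruit list, did not: 2 of its 3 probe sets passed, with group means from 10.24 to 11.52, and they changed by 0.06 ± 0.81 and 0.25 ± 0.34 with salt and by 0.51 and 0.99 with Alethea. The lipid transfer protein genes LE16 and TSW12 formed the epidermis list. With salt they averaged higher by 0.83 ± 1.09 and 0.63 ± 0.73 (SD, n = 6 pairs), each higher in 5 of 6 pairs. As an average of this pair of genes the arrays ranged from 10.5 to 12.3 in WW, 11.4 to 12.7 in WS, 11.2 to 12.5 in AW and 11.3 to 13.3 in AS. Of the 6 tomato control transcripts with 3′ and 5′ probe sets, the control labelled GlutTrans had a 3′ minus 5′ signal that was higher with salt in 6 of 6 pairs, by 0.36 ± 0.32. For PhyB2 it changed by 0.24 ± 0.63 and was higher in 3 of 6, and for actin, EF1a, GAPDH and ubiquitin by 0.06 ± 0.37, 0.10 ± 0.31, 0.04 ± 0.09 and 0.02 ± 0.17. The part of these genes and controls in the results was not tested. In whole-leaf RNA, the share of a cell type and the RNA per cell cannot be told apart, and this holds for LE16 and TSW12 too.

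Salt changes are given as the mean of the 6 pairs ± their SD. The members' mean salt change ran from -2.66 to -0.50 with a median of -0.70, which is a 1.62-fold lower signal, while the median over all probe sets tested was 0.00. The mean fall reached 1 log2 unit in 11 members, lay between 0.75 and 1 in 19 and was smaller in 38. By pair, the members' median was -0.40, -0.69 and -0.86 without Alethea and -0.64, -0.77 and -0.80 after Alethea on occasions 1 to 3. By the means of the 3 occasions, the fall was smallest on occasion 1 in 41 members and on occasion 3 in 12.

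**Figure D1:**
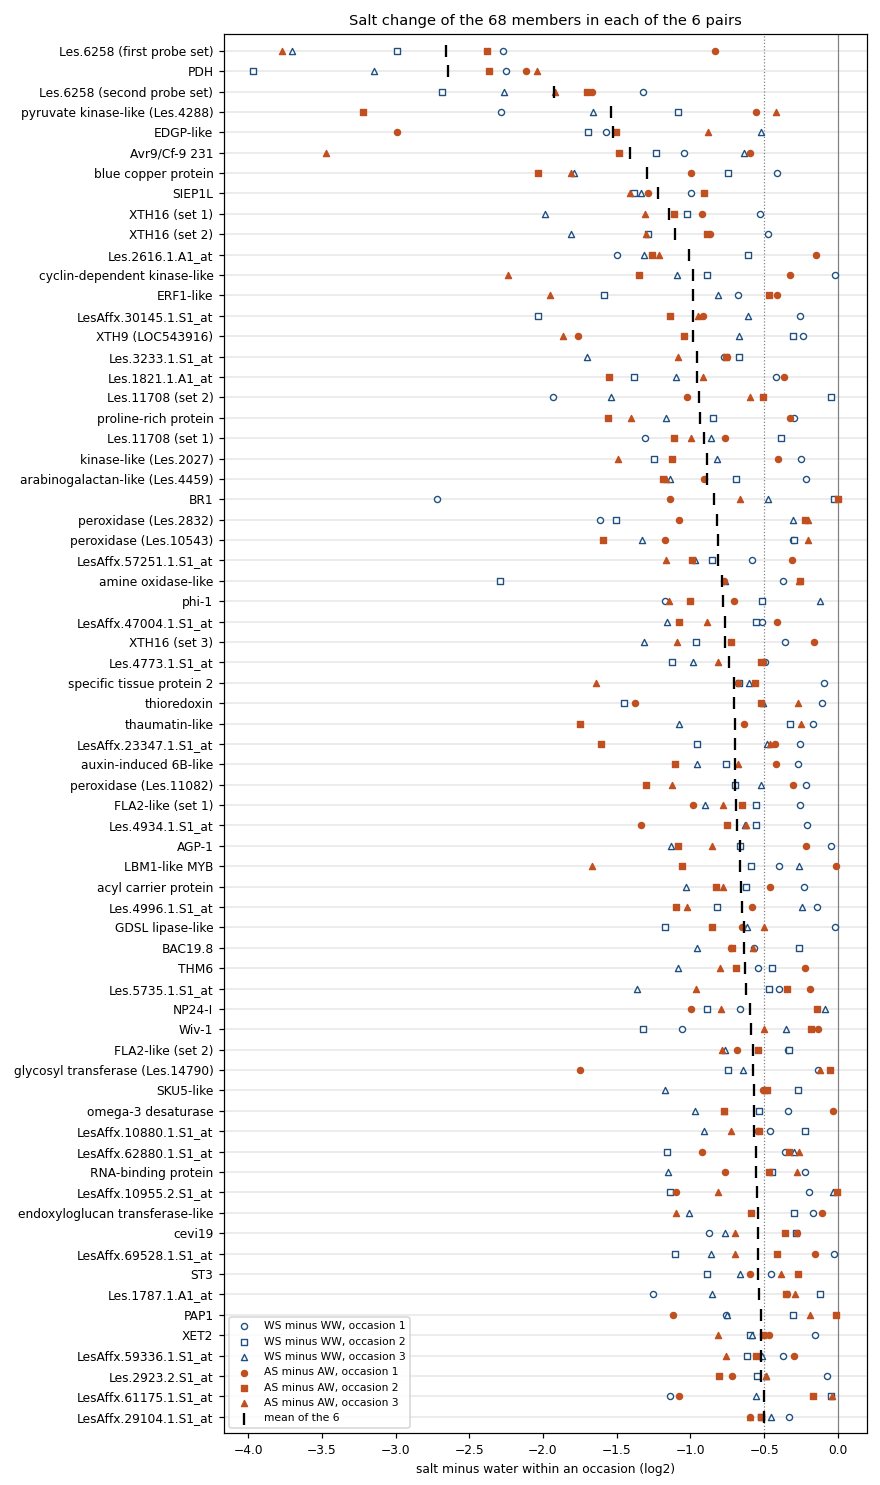
Salt minus water within an occasion (log2, x axis) for each of the 68 members (rows, by mean change). Open symbols are WS minus WW, filled symbols AS minus AW, marker shapes the occasions, black ticks the means of the 6 pairs and the dotted line the threshold of -0.5; means run from -2.66 to -0.50, and in 15 members a pair lies within 0.1 of 0.

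The groups overlapped in most members all the same. The 6 salt arrays all lay below the 6 water arrays in 5 members, against 9 of all probe sets tested (0.116%): PDH, both probe sets of an unnamed transcript, an EDGP-like gene and a class III peroxidase. Without Alethea the 3 salt arrays lay below the 3 water arrays in 14 members (2.72% of all tested), and after Alethea in 12 (1.88% of all tested). These shares use the contrast of the rule. In all, 15 members had at least 1 pair within 0.1 of 0, and 8 were lower by over 0.5 in every pair. At least 1 group mean was no higher than 3.2, near the lower end of the array's scale, in 7 members.

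The fall was largest among named genes in PDH, which encodes proline oxidase, also called proline dehydrogenase. Its log2 values on occasions 1, 2 and 3 were 6.26, 8.06 and 8.04 in WW, 4.01, 4.09 and 4.89 in WS, 6.74, 7.76 and 6.92 in AW and 4.62, 5.40 and 4.88 in AS. All salt arrays lay below all water arrays. The change averaged -2.65 ± 0.76 (SD, n = 6 pairs) over all pairs, a 6.27-fold lower signal. Between group means it was -3.12 in the plants sprayed with water and -2.17 in those sprayed with Alethea. The other proline genes with a symbol had small changes. PRO2, for pyrroline-5-carboxylate synthetase of the synthesis route, changed by 0.19 ± 0.37 and was lower in 2 of 6 pairs, and the proline transporter genes ProT1 and ProT2 changed by 0.12 ± 0.14 and -0.02 ± 0.22. PRO1 and ProT3 did not pass the filter.

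Carbon and amine metabolism gave 4 further members. A gene whose best match was a pyruvate kinase in one of the study's name lists and an uncharacterised rice protein in another stood at 6.75, 4.42 and 5.15 in WW, 4.46, 3.33 and 3.49 in WS, 6.21, 6.38 and 3.43 in AW and 5.65, 3.16 and 3.01 in AS. The groups overlapped, and the change of -1.54 ± 1.08 ran from -0.42 to -3.22 among pairs. An amine oxidase-like gene, of the enzymes that oxidise amines such as polyamines, changed by -0.79 ± 0.77, with a single pair at -2.29. Wiv-1, an acid invertase that splits sucrose, changed by -0.59 ± 0.49, and ST3, a sugar transporter, by -0.54 ± 0.22. The invertase and sugar carrier genes listed by symbol were mixed. Of 9 probe sets tested, Wiv-1 and ST3 included, 4 had a mean below 0 and 5 above, from -0.59 for Wiv-1 to 0.60 for the transporter ST2. The hexose transporter HT1 was lower in 6 of 6 pairs, at -0.45 ± 0.30, and missed the threshold on the mean.

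The largest mean fall of all belonged to a transcript without a known role, whose protein matched unknown proteins of Arabidopsis and which was read by 2 probe sets. The first stood at 6.37, 6.16 and 6.35 in WW, 4.10, 3.16 and 2.65 in WS, 6.34, 5.83 and 6.14 in AW and 5.50, 3.45 and 2.36 in AS. The water arrays lay close together, and the salt arrays were spread widely below them. Its change was -2.66 ± 1.09, a 6.32-fold lower signal. The second changed by -1.93 ± 0.48, from 6.04, 6.05 and 5.68 in WW to 4.72, 3.37 and 3.41 in WS and from 5.75, 5.41 and 5.64 in AW to 4.09, 3.70 and 3.72 in AS. It too had no overlap between water and salt.

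XTHs were the largest family, with 7 probe sets from 5 genes or clusters. XTH16 was lower with salt on all 3 of its probe sets, by -1.15 ± 0.49, -1.10 ± 0.46 and -0.77 ± 0.44. On the first of them the values were 12.97, 9.83 and 11.58 in WW, 12.44, 8.81 and 9.59 in WS, 12.91, 10.41 and 10.37 in AW and 11.99, 9.30 and 9.07 in AS. Salt and water arrays overlapped, because every array of occasion 1 was above every array of the other occasions. XTH9 changed by -0.98 ± 0.71 and XET2 by -0.52 ± 0.22, and a further endoxyloglucan transferase-like probe set by -0.54 ± 0.43.

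BR1, an XTH gene known as brassinosteroid-regulated, depended on a single occasion. It stood at 8.19, 2.77 and 3.18 in WW, 5.47, 2.75 and 2.71 in WS, 6.94, 2.83 and 2.82 in AW and 5.80, 2.83 and 2.16 in AS. Off occasion 1 the gene was near the lower end of the scale, and its occasion 2 pairs were -0.03 and -0.00. The mean of -0.84 ± 1.02 was thus smaller than the spread of its pairs.

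Among all XTH genes with a symbol on the array, 12 probe sets were tested, 6 were members and 10 had a mean below 0, with a median of -0.58. XTH1 and XTH7 changed by -0.26 ± 0.24 and -0.27 ± 0.51, each lower in 5 of 6 pairs. XTH5 and XTH6 changed by 0.08 ± 0.12 and 0.07 ± 0.36. tXET-B2 had a mean of -0.64 ± 1.18, was lower in 4 of 6 pairs and included a single pair at -2.88. Other wall-modifying families held no member: of 10 expansin probe sets 7 had a mean below 0, with a median of -0.10, and of 7 beta-galactosidase probe sets 2 did, with a median of 0.15. Of 6 endoglucanase probe sets 2 had a mean below 0, with a median of 0.11, and of 2 pectin enzyme probe sets tested 1 did.

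**Figure D2:**
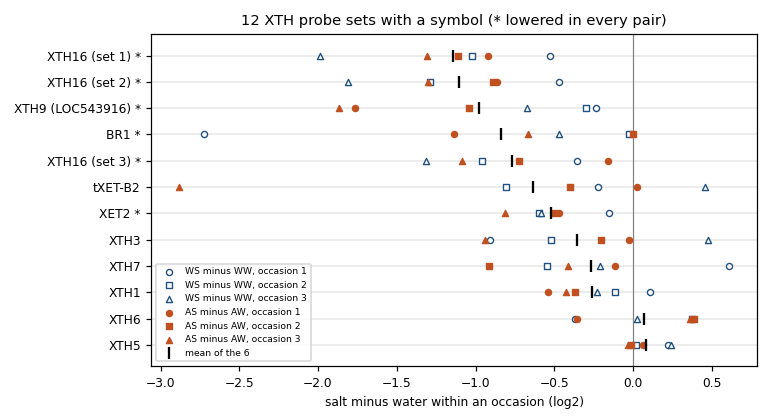
Salt minus water within an occasion (log2, x axis) for the 12 tested XTH probe sets with a gene symbol (rows, by mean change), with open symbols for WS minus WW, filled for AS minus AW, shapes for the occasions and black ticks for means. The 6 rows marked with an asterisk are lower in every pair, from XTH16 at -1.15 to XET2 at -0.52; XTH5 and XTH6 lie on both sides of 0.

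Arabinogalactan proteins and their fasciclin-like relatives gave 4 members. AGP-1 stood at 13.24, 11.08 and 11.31 in WW, 13.20, 10.42 and 10.18 in WS, 13.44, 11.24 and 11.33 in AW and 13.23, 10.16 and 10.48 in AS. Its salt change was -0.04 and -0.22 on occasion 1 and between -0.66 and -1.13 on the others, with a mean of -0.67 ± 0.45. A second arabinogalactan-like gene changed by -0.88 ± 0.38. A gene like FLA2, a fasciclin-like arabinogalactan protein, changed by -0.69 ± 0.26 and -0.57 ± 0.20 on its 2 member probe sets, and by -0.43 on a further probe set of the cluster that was lower in 6 of 6 pairs but missed the threshold.

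Other wall and secreted proteins numbered 7. The EDGP-like gene, related to a secreted glycoprotein of carrot, stood at 4.12, 4.50 and 3.32 in WW, 2.55, 2.81 and 2.80 in WS, 5.19, 3.54 and 3.72 in AW and 2.20, 2.03 and 2.84 in AS. The groups did not overlap, and the change was -1.53 ± 0.85, with both salt groups averaging under 3.2. SIEP1L, matched to the secreted glycoprotein EP1, had the most even fall among the members past 1 log2 unit. It stood at 8.22, 9.31 and 9.49 in WW, 7.22, 7.92 and 8.16 in WS, 9.22, 10.47 and 10.81 in AW and 7.94, 9.56 and 9.40 in AS. The change was -1.22 ± 0.21, between -0.91 and -1.41 in every pair. Salt and water arrays overlapped between pre-treatments and also within the Alethea groups, where occasion 1 was low.

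A blue copper protein, of the small electron-carrying proteins of the plastocyanin type, changed by -1.30 ± 0.67. A proline-rich protein gene was among the brightest members, at 14.43, 13.22 and 13.07 in WW and 14.13, 12.37 and 11.90 in WS, and changed by -0.93 ± 0.54. A second probe set of that gene changed by -1.06 but was lower in 5 of 6 pairs. The genes matched to phi-1, a phosphate-induced protein of tobacco cells, to specific tissue protein 2 of chickpea and to SKU5, a wall protein of Arabidopsis that affects the direction of growth, changed by -0.78 ± 0.41, -0.71 ± 0.51 and -0.57 ± 0.31.

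Glycosyl transferases, which build sugar chains, gave 3 members. A single gene was read by 2 of them, at -0.94 ± 0.70 and -0.90 ± 0.32, and the third changed by -0.57 ± 0.65, with -1.75 in a single pair. Of the 3 class III peroxidases, the one without overlap stood at 6.92, 6.95 and 7.83 in WW, 6.62, 6.66 and 6.51 in WS, 6.89, 7.94 and 7.05 in AW and 5.71, 6.34 and 6.84 in AS. The lowest water array was just above the highest salt array, and the change was -0.81 ± 0.62. A cationic peroxidase and a peroxidase matched to potato changed by -0.82 ± 0.66 and -0.69 ± 0.44, the latter from WW values of no more than 3.01.

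Lipid genes numbered 4. The acyl carrier protein gene, whose product holds the growing chain in fatty acid synthesis, stood at 12.41, 11.57 and 11.16 in WW, 12.18, 10.95 and 10.13 in WS, 12.44, 11.15 and 11.11 in AW and 11.98, 10.32 and 10.33 in AS. It was lower by 0.66 on average (-0.66 ± 0.29), with overlap between groups. An omega-3 desaturase of the endoplasmic reticulum and cevi19, matched to an omega-6 desaturase, which both add double bonds to fatty acids, changed by -0.57 ± 0.34 and -0.54 ± 0.26. A GDSL lipase-like gene changed by -0.64 ± 0.38. Of the related genes that were not members, BCCP1, a subunit of acetyl-CoA carboxylase, changed by -0.22 ± 0.14 in 6 of 6 pairs and the plastid desaturase gene Fad7 by -0.15 ± 0.41.

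Transcription factors numbered 3. An ERF1-like gene of the ethylene response factors stood at 4.61, 6.04 and 5.09 in WW, 3.93, 4.45 and 4.28 in WS, 4.24, 6.49 and 6.04 in AW and 3.82, 6.02 and 4.08 in AS. The groups overlapped, and the change was -0.98 ± 0.64. Of the 10 tested ERF probe sets with a symbol 8 had a mean below 0, with a median of -0.13, and none was a member. The MYB factors THM6 and an LBM1-like gene changed by -0.63 ± 0.30 and -0.66 ± 0.60, the latter averaging 2.58 in WW and 2.17 in WS, below the filter level. Of the 4 tested MYB probe sets listed by symbol, THM6 included, 2 had a mean below 0 and 2 above, with a median of -0.07.

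Defence genes numbered 3. The Avr9/Cf-9 gene, matched to a rapidly elicited protein of tobacco, stood at 4.63, 3.58 and 3.82 in WW, 3.59, 2.35 and 3.18 in WS, 4.44, 5.42 and 7.11 in AW and 3.85, 3.93 and 3.63 in AS. Its change of -1.41 ± 1.07 included a single pair at -3.47, from the high AW array of occasion 3. A thaumatin-like gene changed by -0.70 ± 0.61, and NP24-I, an osmotin-type protein of the pathogenesis-related group, by -0.59 ± 0.39. Of the pathogenesis-related probe sets listed by symbol, 4 of 11 tested had a mean below 0, and the median was 0.07. That list, made by hand, left out a PR5-like probe set that changed by -1.12 and was lower in 5 of 6 pairs.

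A cyclin-dependent kinase-like gene and a second kinase-like gene changed by -0.99 ± 0.79 and -0.89 ± 0.49. The study's name lists differed on the second, which one of them called a plasma membrane polypeptide. The remaining named members were an auxin-induced 6B-like gene at -0.70 ± 0.31, a thioredoxin at -0.71 ± 0.57, an RNA-binding protein gene at -0.55 ± 0.35 and PAP1 at -0.52 ± 0.42. No role could be given to 23 members, whose median was -0.65.

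Other probe sets of the members' genes were read on the same arrays and pairs that chose the members, so they are no independent check. In 17 clusters 20 further probe sets were not members, and 15 of these passed the filter. Of the 15, 14 had a mean below 0, 3 were lower in 6 of 6 pairs and 9 in 5 of 6, and their median was -0.43. The exception was a dim probe set (3.09 in WW) of the second kinase-like gene's cluster, at 0.12 and lower in 3 of 6 pairs. The other further probe sets for that gene changed by -0.55, -0.94 and -0.81. Near 0 was the bright second thioredoxin probe set (13.46 in WW), at -0.01, while the dim member probe set of thioredoxin (4.75 in WW) changed by -0.71. The second RNA-binding protein probe set changed by -0.06.

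The members differed widely between occasions. The spread among the 3 occasion means, the highest minus the lowest, exceeded the mean salt fall in 52 of 68 members. These measures are unlike, since a range over 3 means takes the largest of their differences. The median spread was 1.56 against 0.50 over all probe sets tested. By the F test of limma, a linear model with pooled variances, 53 members (77.9%) differed between occasions at a Benjamini-Hochberg adjusted p under 0.05, beside 4190 of all probe sets tested (54.2%). Occasion 1 had the highest mean in 51 members (42% of all tested), and in 44 of these the occasion test was passed (26.3% of all tested). All 4 arrays of occasion 1 lay above the other 8 in 34 members, beside 15.4% of all tested, and below them in 2. The difference of occasion 1 from the mean of the others had a median of 1.11 in the members and 0.01 over all tested.

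BR1, the third glycosyl transferase and the second arabinogalactan-like gene exceeded the mean of the other occasions by 3.84, 3.68 and 3.29, XTH16 by 2.01 to 2.89 and AGP-1 by 2.50. NP24-I, Wiv-1, the cationic peroxidase and SIEP1L were lower on occasion 1, with differences of -4.33, -2.77, -2.30 and -1.24. PDH differed by -0.85, with an adjusted p of 0.059 for occasion, and XET2 by 0.02 (adjusted p = 0.99). The labels name the occasions by number alone, so what differed between them was not tested.

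**Figure D3:**
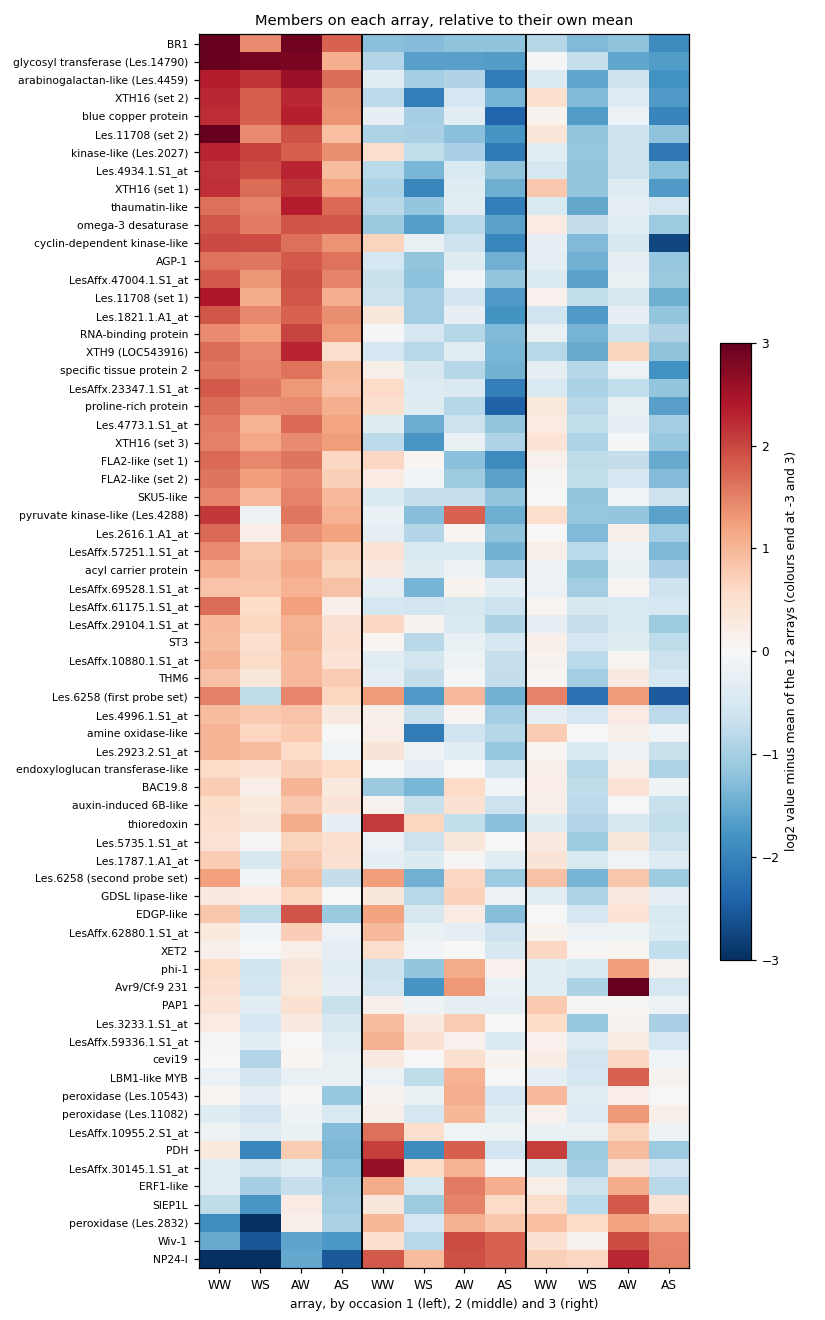
Log2 value of each of the 68 members (rows) on each of the 12 arrays (columns, the 4 groups within occasions 1, 2 and 3 from left to right) minus the member's mean over the 12 arrays, in colour. The upper rows, including BR1, XTH16 and AGP-1, are red on the 4 arrays of occasion 1, and the lowest rows, NP24-I and Wiv-1, are blue there.

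The next comparison asked whether Alethea changed the size of the salt response. The members' median was -0.66 for WS against WW and -0.73 for AS against AW, and the fall was larger without Alethea in 30 members and after it in 38. Among the 38, the LBM1-like gene and the peroxidase matched to potato passed the filter through AW alone, which favours a larger fall after Alethea. Among the 30, an unnamed member passed it through WW alone, which favours the other side. No member had a limma interaction at an adjusted p under 0.05, nor did any of the probe sets tested (0%). At an unadjusted p under 0.05 there was 1 member, beside 2.19% of all tested. The rule limits this test, since both salt changes had to be below 0 in every pair.

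That member was XTH9, with 6.89, 4.69 and 4.38 in WW, 6.65, 4.39 and 3.71 in WS, 7.49, 4.90 and 5.87 in AW and 5.73, 3.85 and 4.01 in AS. Salt changed it by -0.40 after the water spray and by -1.56 after the Alethea spray, more after Alethea on every occasion, with a difference of -1.15 ± 0.41 (SE from limma, adjusted p = 1.00). In the opposite direction the difference was 0.95 ± 0.50 for PDH (SE, limma adjusted p = 1.00). The amine oxidase-like gene and the first probe set of the unnamed transcript differed by 0.71 ± 0.47 and 0.66 ± 0.70, and the Avr9/Cf-9 gene and the cyclin-dependent kinase-like gene by -0.88 ± 0.83 and -0.64 ± 0.54 (SE, limma adjusted p = 1.00 for each). Some of these differences depended on an occasion: the amine oxidase-like gene stood at 0.05 without occasion 2 and 1.27 without occasion 1, the unnamed transcript at 0.27 without occasion 1 and 1.03 without occasion 3, the cyclin-dependent kinase-like gene at -0.38 without occasion 3, the Avr9/Cf-9 gene at -1.54 without occasion 1 and 0.10 without occasion 3, and PDH at 0.62 without occasion 2.

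**Figure D4:**
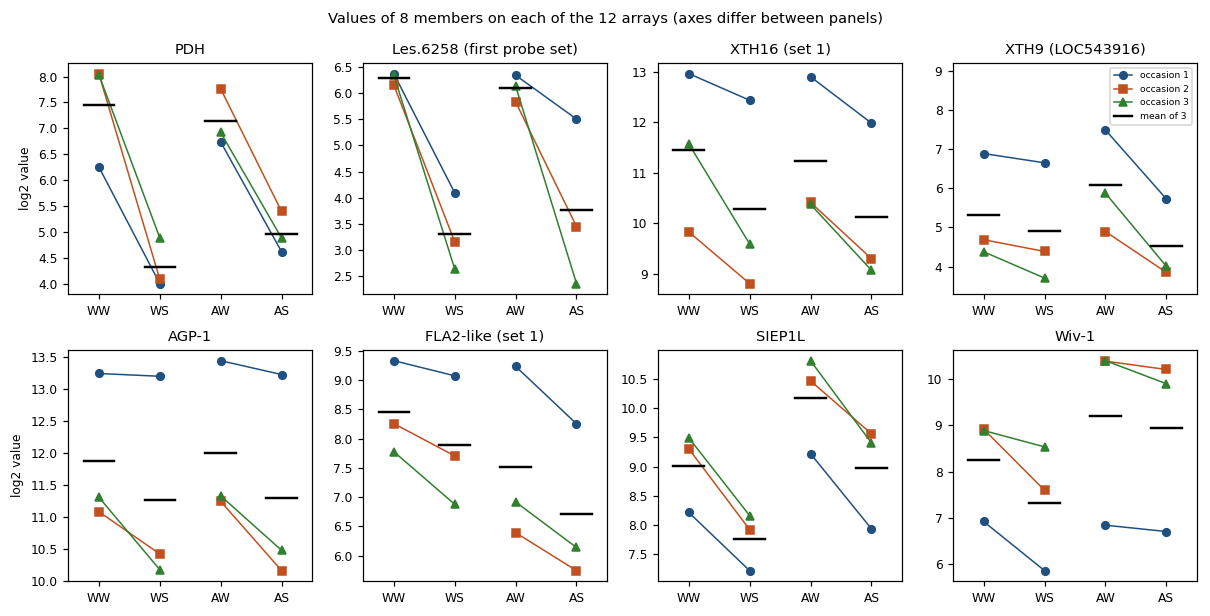
Log2 values (y axis, own scale per panel) of 8 members in the groups WW, WS, AW and AS (x axis), with coloured lines joining the water and salt arrays of an occasion and black bars for the means of 3. Every line goes down; PDH and the unnamed transcript separate water from salt, whereas XTH16, AGP-1 and FLA2-like lie highest on occasion 1 and SIEP1L and Wiv-1 lowest there.

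The Alethea change, averaged over the plants without and with salt, is a contrast the rule did not use. It passed limma's adjusted p of 0.05 in 7 members (10.3%), close to the 8.21% of all probe sets tested, with 3 higher (3.61% of all tested) and 4 lower (4.6% of all tested). At an unadjusted p under 0.05 there were 28 members (41.2%, beside 32% of all tested). The members' median was -0.10, with 26 above 0 and 42 below, and 0.00 over all tested. All 6 Alethea pairs were above 0 in 9 members (9.16% of all tested) and below 0 in 10 (9.31% of all tested). Rank Product, a rank test that the study ran on single pairwise comparisons, was run here over all 6 Alethea pairs together. It called 15 members (8 lower and 7 higher after Alethea) at a nominal false discovery rate of 0.05, beside 4.99% of all tested. Its permutations treated the 6 pairs as independent, though both pairs of an occasion share that occasion, so the rate is nominal only. The LBM1-like gene is among the 7 higher by Rank Product, and the peroxidase matched to potato among the 9. Both passed the filter through AW alone, which favours values above 0, and both are among the 28.

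Higher after Alethea were Wiv-1, SIEP1L and NP24-I. Wiv-1 stood at 6.92, 8.92 and 8.89 in WW, 5.86, 7.60 and 8.53 in WS, 6.84, 10.38 and 10.39 in AW and 6.71, 10.20 and 9.90 in AS. Its change was 1.28 ± 0.26 (SE, limma adjusted p = 0.035), above 0 in 5 of 6 pairs, and was smallest on occasion 1. SIEP1L changed by 1.18 ± 0.12 (SE, limma adjusted p = 0.012) in 6 of 6 pairs, close in size to its salt fall. NP24-I stood at 5.15, 10.41 and 9.27 in WW, 4.49, 9.52 and 9.19 in WS, 7.03, 10.47 and 10.83 in AW and 6.04, 10.33 and 10.04 in AS. It changed by 1.12 ± 0.22 (SE, limma adjusted p = 0.034) in 6 of 6 pairs, within a far wider range between occasions.

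Lower after Alethea were both FLA2-like probe sets, the second kinase-like gene and an unnamed gene. FLA2-like set 1 stood at 9.33, 8.26 and 7.78 in WW, 9.08, 7.70 and 6.88 in WS, 9.24, 6.39 and 6.92 in AW and 8.25, 5.74 and 6.14 in AS. It changed by -1.06 ± 0.23 (SE, limma adjusted p = 0.037), with -0.46, -1.91 and -0.80 on occasions 1 to 3, and set 2 by -0.78 ± 0.17 (adjusted p = 0.040). The kinase-like gene and the unnamed gene changed by -0.90 ± 0.20 (adjusted p = 0.041) and -0.63 ± 0.12 (adjusted p = 0.032). All 4 were lower in 6 of 6 pairs.

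By role, all 3 glycosyl transferases and both kinases had an Alethea mean below 0, and all 3 defence genes had one above 0, but apart from the genes just named none of these passed limma's test. Rank Product also called the third glycosyl transferase, 1 of the 2 probe sets of the other and the cyclin-dependent kinase-like gene lower, and the Avr9/Cf-9 gene higher. The ERF1-like gene and THM6 changed by 0.38 ± 0.27 and 0.25 ± 0.11 (SE), and the LBM1-like gene by 0.83 ± 0.25, but the LBM1-like gene passed the filter through AW alone, which favours a value above 0. Of the XTH members, changes ran from -0.43 for XET2 (adjusted p = 0.051) to 0.19 for XTH9. PDH changed by 0.16 ± 0.25 (adjusted p = 0.68).

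The Alethea calls depended on the occasions and on the treatment of pairs. With the water and salt arrays averaged within each pre-treatment and occasion 0 members were called by limma (26 at an unadjusted p under 0.05), and 0 without occasion 2 (17 unadjusted) or without occasion 3 (16 unadjusted). Without the occasion block 0 were called (5 unadjusted). Signs of RNA or labelling quality also moved with Alethea: the 3′ minus 5′ signal of the actin control was higher by 0.65 ± 0.41 (SD, n = 6 pairs), of EF1a by 0.50 ± 0.27, of GAPDH by 0.16 ± 0.09 and of ubiquitin by 0.31 ± 0.22, each in 6 of 6 pairs. For GlutTrans it was higher by 0.70 ± 0.59 in 5 of 6 pairs, and for PhyB2 it changed by -0.08 ± 0.30 and was higher in 2 of 6. The bacterial hybridisation controls averaged 12.23 and 12.14 on the WW and WS arrays of occasion 2 and 10.50 to 11.48 on the others. Their part in the Alethea changes was not tested.

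**Figure D5:**
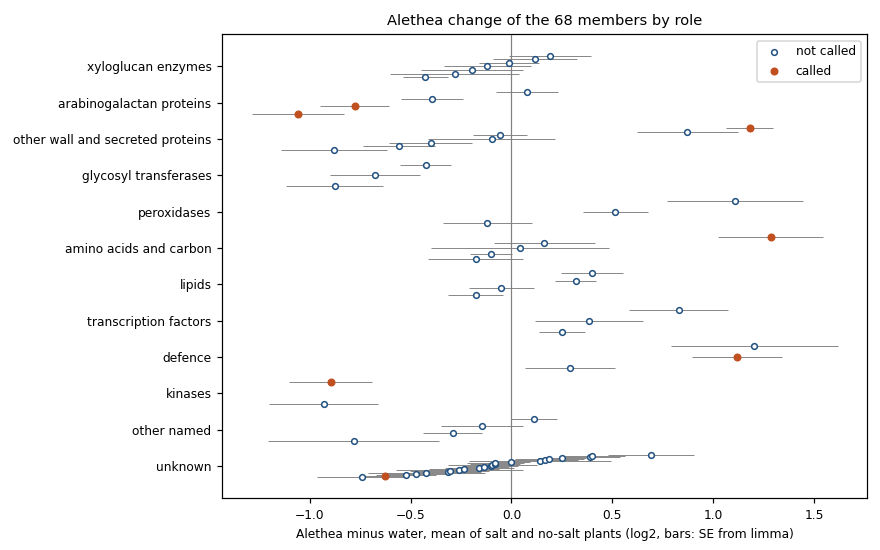
Alethea minus water, averaged over plants with and without salt (log2, x axis), for each of the 68 members (points) by role (rows), with bars for the SE from limma. Filled points are the 7 members called, 3 of them higher (Wiv-1 at 1.28, SIEP1L at 1.18 and NP24-I at 1.12) and 4 lower.

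At the edge of the rule, the 3 members just inside had no name and mean salt changes of -0.503, -0.504 and -0.518, the last being the unnamed gene that was lower after Alethea. The 3 probe sets just outside, with all pairs below 0 and no name either, had -0.496, -0.493 and -0.492. A further 52 probe sets had a mean of at most -0.5 but were lower in 5 of 6 pairs. They included the second probe set of the proline-rich protein gene, whose exception was 0.07 on occasion 1.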

How the data were processed

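RNA from 12 tomato leaf samples was hybridised to 1-colour Affymetrix tomato arrays. The authors deposited log2 values, 1 per probe set and array; the submitters' processing notes name GCRMA, with no version given in the sources used here. The number of arrays limits the precision. The members and gene lists were chosen with earlier results of these data known. Where the reference table held no gene descriptions, lists were made from gene symbols by hand. Names came from the array annotation (909 probe sets with a symbol, 885 matched to the RefSeq table) and the study's lists of names. The text names the members with the largest falls overall and by role, those called for Alethea, those the study names, those whose salt change differed most with Alethea, and those at the threshold.

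The 108 control probe sets were left out, and 7732 others with a group mean above 3.2 were tested. limma 3.58.1 (R 4.3.3) fitted 4 group means with occasion as a block, and p-values were Benjamini-Hochberg adjusted over all probe sets tested, with 0.05 as the threshold. The replicate numbers were taken as occasions, which the labels do not state, and the block followed the study's paired test. As a check on pairing, deviations from group means correlated at 0.44 to 0.87 over 18 pairs of arrays of the same occasion, at 0.74 to 0.87 within a pre-treatment and 0.44 to 0.81 between pre-treatments. Arrays of other occasions and groups correlated at -0.79 to 0.63. Rank Product was run over all Alethea pairs together, as if they were independent, with 1000 permutations. The fit was tested on simulated data. Alternatives covered the threshold, filter, block, scale, variance prior, array weights and each occasion left out. A promoter motif search was planned and not run here.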

Additional observations from a re-analysis of the deposited data

How the results depend on the processing

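The number of probe sets meeting the rule was 106 with the mean at most -0.4, 30 at -0.75 and 11 at -1. With no replicate block, asking for both group differences below 0, it was 126, which held all 68. Leaving out an occasion gave 79 to 152, sharing 55 to 60 with the 68. The other settings gave 58 to 70. Members called for Alethea numbered 0 with no replicate block, 13 with an intensity trend, 22 with array weights, 4 with no filter, 0 with means per pre-treatment and occasion, 15 by Rank Product and 0 to 11 without an occasion in turn: 0 without occasion 2 or 3 and 11 without occasion 1. The same sign in all 6 Alethea pairs, an alternative chosen after seeing the data, held for 19. They include the potato-matched peroxidase that passed the filter through AW alone. The stricter filter and quantile normalisation gave 8 and 9. Members with an interaction stayed at 0 in the 9 alternatives run, and those differing between occasions at 48 to 54. The Alethea changes of the 7 called members kept their direction under each of no replicate block, quantile normalisation and the 3 omissions, and over those refits stayed past the threshold in 11 and lost it in 24. The interaction of the Avr9/Cf-9 gene ranged from -1.54 without occasion 1 to 0.10 without occasion 3, where its sign turned; it passed no threshold in either. The cause was not tested.

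There were 3 arrays a group, and 7 members have a group near the lower end of the scale.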
